A study of Sus scrofa with 10 samples.

Results

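The cAMP-dependent protein kinase (PKA) is a tetramer of regulatory and catalytic subunits. Binding of cAMP to the regulatory subunits releases active catalytic subunits, phosphodiesterases break cAMP down, and the released kinase phosphorylates targets that include the transcription factors that bind the cAMP response element. In the ovary, the receptors for FSH and LH couple to adenylyl cyclase, so that PKA is a main route by which gonadotropins act on granulosa, theca and luteal cells.

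The expression of 10 genes of this system was described in ovaries of gilts given recombinant porcine FSH (rpFSH) or saline. They were the catalytic subunits PRKACA and PRKACB, the regulatory subunits PRKAR1A, PRKAR2A and PRKAR2B, the cAMP response element modulator CREM, and the phosphodiesterases PDE3A, PDE4B, PDE4D and PDE8A. Each was found by its symbol among the 19972 protein-coding loci of the deposited table, which holds 43499 loci in all. Where a symbol had more than 1 locus, the locus with the largest summed count was taken, which concerned PDE4D only.

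RNA-seq was done on the ovary of 10 gilts of the same genetic background, all born on a single day, with 1 library per pig and no pooling. All gilts, controls included, were fed altrenogest, a progestin that holds back the oestrous cycle, at 20 mg per day for 18 days from the age of 210 days. After 2 days without it, 5 gilts received 1000 IU of rpFSH each (rpFSH group) and 5 received saline (control group), and the ovaries were taken at the age of 234 days. Follicles at the surface of the ovary were removed before RNA was extracted, so that the tissue is mainly what lies beneath them. The sample labels spell the agent of the treated animals fpFSH.

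The total count per pig was 64873797 to 75114003, of which 64.7% to 74.7% fell in protein-coding loci, and 3 counts corresponded to 0.0399 to 0.0462 CPM. The genes described here had 722 to 49462 counts per pig, so that counting error was small against the spread between pigs. Markers of oocytes, granulosa, theca, stroma, endothelium and leukocytes were detected in every pig, with OOEP as the marker of these that was at the floor of the table in some pigs. Markers of luteal, smooth muscle and ciliated epithelial cells set single pigs apart. The summed luteal markers were highest in control pig 2 (2721 FPKM) and rpFSH pig 1 (1415 FPKM). They were followed by rpFSH pig 4 (346 FPKM), against 15.2 to 58.5 FPKM elsewhere. The summed smooth muscle markers were 2194 FPKM in control pig 5 and 66.2 to 500 FPKM elsewhere, and the summed ciliated epithelium markers were 105 and 39.8 FPKM in control pigs 5 and 2, and 4.07 to 7.17 FPKM elsewhere. An unadjusted limma P under 0.05 was reached by 0 of 4 luteal, 0 of 6 smooth muscle, 1 of 5 stroma and 1 of 6 ciliated epithelium markers, against 3.03% of all loci tested. The stroma marker was LUM and the ciliated marker DNAH5, both lower after rpFSH and both past the rule of the study, and in edgeR 1 of 5 and 4 of 6 passed, against 4.76% of all loci. LUM was 10.9 ± 10.3 and 3.54 ± 1.56 FPKM (SD, n = 5 each), with 29.0 FPKM in control pig 5. FOXJ1, RSPH1 and DNAI1 were at the floor in at least 1 rpFSH pig. In this bulk tissue, fewer cells of a type and less RNA per cell cannot be told apart.

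All 10 genes had a mean FPKM over the filter of 0.1 and were tested among 15170 protein-coding loci. The data gave no member that differed between the groups after adjustment. The phosphodiesterase PDE4B was higher in mean after rpFSH, by 1.52-fold, and the catalytic subunit PRKACA was lower, at 0.802 of the control mean. These were the 2 of 10 members with an unadjusted P under 0.05 in limma, a limit that 460 of the 15170 loci (3.03%) passed. The phosphodiesterase PDE3A was at 1.42 times the control mean and lay just outside that limit, and the remaining 7 members had an unadjusted limma P of 0.105 or more.

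The study called a gene from an unadjusted P under 0.05 together with a log2 ratio beyond 1 or -1, and by this rule limma called 0 of the 10 members and 172 of 15170 loci (1.13%). At an adjusted p under 0.05, limma called 0% of the loci, and 0 members, with an adjusted p of 1.00 for each of the 10. On the deposited counts, edgeR gave an unadjusted P under 0.05 to 2 members, PDE3A and PDE4B, against 722 of 15170 loci (4.76%), and 0 loci passed at an adjusted p under 0.05. DESeq2 gave it to 3 members, PRKACA, PDE3A and PDE4B, against 917 of 14844 loci with a P (6.18%), and while it called 86 loci at an adjusted p under 0.05, none of the members was among them. The groups overlapped in every member, while they did not in 95 of 15170 loci (0.626%).

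**Figure D1:**
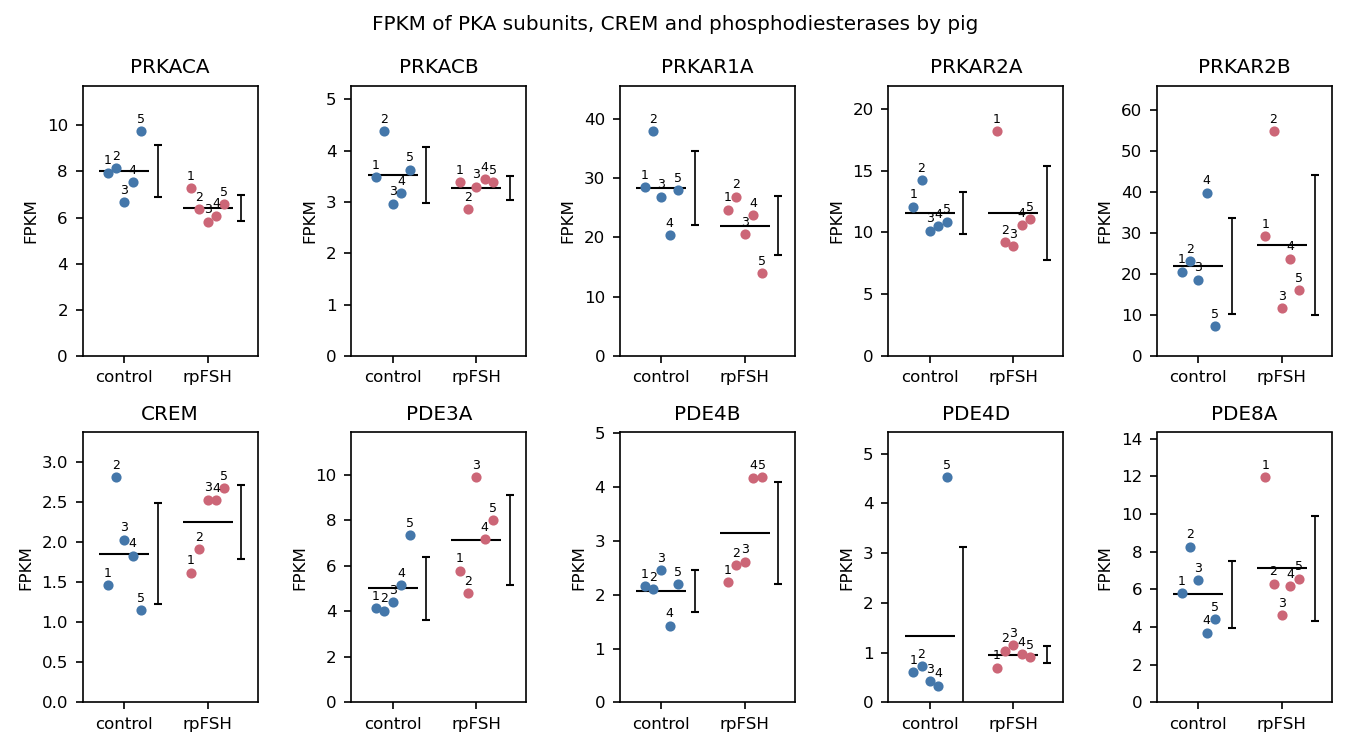
FPKM of the 10 genes in each pig, with control pigs in blue, rpFSH pigs in red and pig numbers above the points. Horizontal lines are group means and bars are the mean ± SD of 5 pigs, drawn down to 0 where the lower end is below it. PRKACA of all 5 rpFSH pigs lies below the control median of 7.95, PDE4B of all 5 lies above the control median of 2.17, and PDE4D of control pig 5 stands at 4.52.

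The catalytic subunits carry the kinase activity, and PRKACA encodes the form found in most tissues. Its locus (MSTRG.18362, Sscrofa11.1 chr2:65074503-65095920, plus strand) gave 7.95, 8.15, 6.68, 7.52 and 9.75 FPKM in control pigs 1 to 5. In rpFSH pigs 1 to 5 it gave 7.29, 6.36, 5.82, 6.08 and 6.58 FPKM. All 5 rpFSH pigs were below the control median and 4 of 5 were below the lowest control, control pig 3, while rpFSH pig 1 lay within the control range. The means were 8.01 ± 1.13 and 6.42 ± 0.559 FPKM (SD, n = 5 each). On the log2 (FPKM + 1) scale, which understates the difference of genes with a low level, rpFSH minus control was -0.27 (SE 0.11, 95% interval -0.52 to -0.03, limma P = 0.0320, exact permutation p = 0.0159). In edgeR the P was 0.0716. Control pigs 5 and 2, the highest in PRKACA, were also the highest in ciliated epithelium markers. Without both the difference was -0.18 with a limma P of 0.136, but leaving out the highest controls had to shrink it. The part of ciliated cells in the level of PRKACA was not tested. Without control pig 1 or 5, or rpFSH pig 2, 3 or 4, the limma P rose above 0.05, to at most 0.0791.

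PRKACB encodes the other main catalytic subunit. Its locus (MSTRG.29126, chr6:129519965-129635777, minus strand) ranged from 2.97 to 4.38 FPKM in controls and from 2.86 to 3.44 FPKM in the rpFSH group, with means of 3.53 ± 0.544 and 3.27 ± 0.239 FPKM (SD, n = 5 each). The rpFSH pigs all lay below the control median of 3.49 FPKM, and 4 of 5 were within the control range. The difference was -0.08 (95% interval -0.31 to 0.16, limma P = 0.489, exact permutation p = 0.429), within the spread between pigs.

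Among the regulatory subunits, PRKAR1A encodes the type I alpha form, which holds the catalytic subunits in an inactive complex mainly in the cytosol. Its locus (MSTRG.5831, chr12:11661872-11681435, minus strand) gave 28.5, 38.0, 26.9, 20.4 and 27.9 FPKM in control pigs 1 to 5. The values of rpFSH pigs 1 to 5 were 24.7, 26.9, 20.6, 23.8 and 14.0 FPKM. The rpFSH values were all under the control median of 27.9 FPKM, and only rpFSH pig 5 was under the lowest control, so that the groups overlapped. With means of 28.3 ± 6.30 and 22.0 ± 5.01 FPKM (SD, n = 5 each), the difference was -0.36 (SE 0.20, 95% interval -0.80 to 0.09, limma P = 0.105, exact permutation p = 0.135). It passed an unadjusted limma P under 0.05 only without control pig 4 (P of 0.0439). This was the lowest control, so that leaving it out had to widen the difference.

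PRKAR2A encodes the type II alpha subunit, which is bound by anchoring proteins. Its locus (MSTRG.7830, chr13:31426040-31517273, minus strand) ranged from 10.1 to 14.2 FPKM in controls and from 8.87 to 18.2 FPKM in the rpFSH group. The highest pigs were rpFSH pig 1 and control pig 2, which were also the highest pigs in luteal markers, and the part of these cells in the values was not tested. The means were 11.6 ± 1.66 and 11.6 ± 3.81 FPKM (SD, n = 5 each), with a difference of -0.03 (95% interval -0.44 to 0.37, limma P = 0.861, exact permutation p = 0.881). The sign depended on the setting, at 0.02 after upper-quartile scaling and 0.07 in edgeR and DESeq2.

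PRKAR2B encodes the type II beta subunit, known as a gene that granulosa cells express in response to FSH. Its locus (MSTRG.35231, chr9:106851125-106957515, plus strand) gave 20.6, 23.1, 18.7, 39.9 and 7.32 FPKM in control pigs 1 to 5. In rpFSH pigs 1 to 5 it gave 29.2, 54.9, 11.6, 23.7 and 16.0 FPKM. Both groups held high and low pigs, and the highest pig of all had 7.51 times the level of the lowest. The means were 21.9 ± 11.7 and 27.1 ± 17.0 FPKM (SD, n = 5 each). The difference of 0.27 had a 95% interval from -0.74 to 1.29 (limma P = 0.565, exact permutation p = 0.627), and included 0 by a wide margin on both sides. It was -0.08 without control pigs 2 and 5.

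The level of PRKAR2B lay beside that of granulosa markers from pig to pig. The summed granulosa markers (7 of 8 listed genes matched) were 182, 116 and 105 FPKM in rpFSH pigs 1 and 2 and control pig 4, the 3 pigs with the highest PRKAR2B. They were 15.8 and 18.4 FPKM in rpFSH pig 3 and control pig 5, the lowest pigs in both. The ranges of the summed markers were 18.4 to 105 FPKM in controls and 15.8 to 182 FPKM after rpFSH (exact permutation p = 0.389), and 0 of the 7 genes had an unadjusted limma P under 0.05. The part of granulosa cells in the level of PRKAR2B was not tested.

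**Figure D2:**
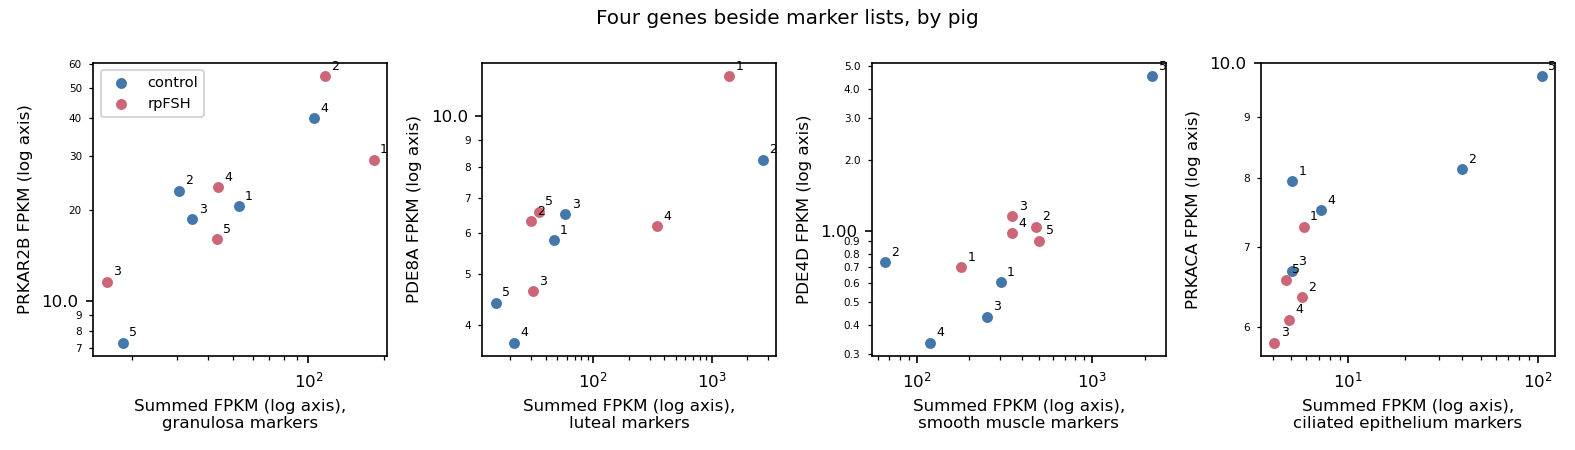
Level of a gene (FPKM, log axis) against the summed FPKM of a marker list (log axis) for the 10 pigs, with control pigs in blue, rpFSH pigs in red and pig numbers beside the points. The panels show PRKAR2B with granulosa, PDE8A with luteal, PDE4D with smooth muscle and PRKACA with ciliated epithelium markers. Control pig 5 stands alone at 2194 FPKM of smooth muscle markers and 4.52 FPKM of PDE4D, and PRKAR2B is lowest in the 2 pigs with the least granulosa marker level.

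The share of each form in the summed FPKM of the 3 regulatory subunits does not depend on library size. PRKAR1A made up 46.6, 50.4, 48.3, 28.8 and 60.6% in control pigs 1 to 5. Among rpFSH pigs 1 to 5 it made up 34.3, 29.5, 50.1, 40.9 and 34.1%. The group means of 46.9 ± 11.5% and 37.8 ± 8.02% (SD, n = 5 each) differed by less than the spread between pigs allows to tell (exact permutation p = 0.183), although the share was lower in 4 of 5 rpFSH pigs than the control median. PRKAR2B made up 34.0 ± 14.5% in controls and 41.8 ± 11.6% after rpFSH (exact permutation p = 0.349), and PRKAR2A 19.1 ± 3.12% and 20.4 ± 6.69% (exact permutation p = 0.667). Without control pig 4, the pig with the lowest share in its group, the difference in PRKAR1A was -13.7 percentage points (exact permutation p = 0.0397). Leaving out the lowest control had to widen it.

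The log2 ratio of PRKACA to PRKACB compares both catalytic subunits within a pig. It was 1.19, 0.89, 1.17, 1.25 and 1.43 in control pigs 1 to 5, and 1.10, 1.15, 0.82, 0.82 and 0.96 in rpFSH pigs 1 to 5. No rpFSH pig was above the control median, and 2 were below the lowest control, control pig 2. The means of 1.19 ± 0.19 and 0.97 ± 0.16 differed by -0.21 (exact permutation p = 0.0714, adjusted p = 0.643 over 9 shares and ratios). The log2 ratio of summed catalytic to summed regulatory FPKM was -2.41 ± 0.37 and -2.58 ± 0.50 (SD, n = 5 each, exact permutation p = 0.571). Without control pig 2, or without control pigs 2 and 5, the ratio of PRKACA to PRKACB had an exact permutation p of 0.0238 or 0.0357. Control pig 2 had the lowest ratio of its group, so that leaving it out had to widen the difference. With any other single pig left out, the exact permutation p was 0.0556 to 0.167. With the replicate number as a block, the sign-flip p was 0.188.

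CREM is a target of the kinase and the gene that also gives rise to the inducible repressor ICER, which the table does not separate from the other products of the locus. The locus (MSTRG.4553, chr10:57829543-57895765, plus strand) gave 1.46, 2.80, 2.03, 1.83 and 1.15 FPKM in control pigs 1 to 5. In rpFSH pigs 1 to 5 it gave 1.62, 1.91, 2.53, 2.52 and 2.67 FPKM. The pigs of the rpFSH group were above the control median in 4 of 5 cases and never above control pig 2. The means of 1.85 ± 0.630 and 2.25 ± 0.459 FPKM (SD, n = 5 each) gave a difference of 0.20 (95% interval -0.17 to 0.57, limma P = 0.252, exact permutation p = 0.278). With each pig left out, the limma P was 0.0624 to 0.522. Without the pigs highest in luteal markers, control pig 2 and rpFSH pig 1, the difference was 0.39 with an unadjusted limma P of 0.0217. These were also the control pig with the highest CREM and the rpFSH pig with the lowest, so that leaving them out had to widen it. This pair was chosen after seeing the data, and the part of luteal cells was not tested.

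The phosphodiesterases end the signal. PDE4B belongs to the family that hydrolyses cAMP only. Its locus (MSTRG.29293, chr6:146166328-146373149, minus strand) carries an Ensembl identifier beside its symbol and gave 2.17, 2.10, 2.46, 1.43 and 2.20 FPKM in control pigs 1 to 5. The values of rpFSH pigs 1 to 5 were 2.23, 2.55, 2.61, 4.18 and 4.18 FPKM. All rpFSH pigs were above the control median and 4 of 5 were above the highest control, control pig 3, with rpFSH pigs 4 and 5 farthest.

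For PDE4B the means were 2.07 ± 0.384 and 3.15 ± 0.951 FPKM (SD, n = 5 each), a log2 ratio of 0.61. The difference was 0.42 (SE 0.17, 95% interval 0.05 to 0.78, limma P = 0.0304, exact permutation p = 0.0159). The P was 0.0138 in edgeR and 0.00604 in DESeq2, with adjusted p of 0.992 and 0.310. Without control pig 4, rpFSH pig 4 or rpFSH pig 5 the limma P was above 0.05, at most 0.0790, and without control pigs 2 and 5 it was 0.0605.

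PDE3A encodes an enzyme that hydrolyses cAMP and is inhibited by cGMP, and is known in the ovary as the phosphodiesterase of the oocyte. Its locus (MSTRG.25420, chr5:52413637-52738207, minus strand) gave 4.14, 4.03, 4.42, 5.14 and 7.36 FPKM in control pigs 1 to 5. In rpFSH pigs 1 to 5 it gave 5.80, 4.81, 9.89, 7.18 and 8.01 FPKM. Every rpFSH pig was above the control median, and 2 were above the highest control, control pig 5. With means of 5.02 ± 1.38 and 7.14 ± 1.97 FPKM (SD, n = 5 each), the difference was 0.43 (SE 0.20, 95% interval -0.00 to 0.86, limma P = 0.0513, exact permutation p = 0.0794). The P was 0.0320 in edgeR and 0.0231 in DESeq2. Summed oocyte markers were 5.28 to 22.4 FPKM in controls and 11.0 to 19.7 FPKM after rpFSH (exact permutation p = 0.706). Control pig 5 had 7.33 FPKM of oocyte and 2194 FPKM of smooth muscle markers. In rpFSH pig 3, the pig with the highest PDE3A, these sums were 19.7 and 351 FPKM. The part of either cell type in the level of PDE3A was not tested. Without control pig 5, the control pig with the highest PDE3A, the limma P was 0.0122, and without rpFSH pig 3 it was 0.126. Leaving out the highest control had to widen the difference, and leaving out the highest rpFSH pig had to shrink it.

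PDE8A encodes a phosphodiesterase with a high affinity for cAMP. Its locus (MSTRG.30923, chr7:52410779-52556923, minus strand) gave 5.80, 8.27, 6.51, 3.70 and 4.41 FPKM in control pigs 1 to 5. The values of rpFSH pigs 1 to 5 were 11.9, 6.30, 4.65, 6.17 and 6.58 FPKM. The highest pigs were again rpFSH pig 1 and control pig 2, the pigs with the most luteal marker RNA, whose part in these values was not tested. The means of 5.74 ± 1.80 and 7.13 ± 2.79 FPKM (SD, n = 5 each) gave a difference of 0.25 (95% interval -0.27 to 0.78, limma P = 0.312, exact permutation p = 0.365). With each pig left out it ran from 0.072, without rpFSH pig 1, to 0.38, without control pig 2.

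PDE4D is related to PDE4B, and the locus taken for it had the lowest mean level of the members. Its locus (MSTRG.14625, chr16:37897302-38182951, minus strand) gave 0.606, 0.733, 0.432, 0.335 and 4.52 FPKM in control pigs 1 to 5. In rpFSH pigs 1 to 5 it gave 0.698, 1.04, 1.15, 0.976 and 0.907 FPKM. Control pig 5, the pig with the highest smooth muscle and ciliated epithelium markers, decided the control mean of 1.33 ± 1.79 FPKM, against 0.955 ± 0.170 FPKM after rpFSH (SD, n = 5 each). With all pigs the difference was -0.01 (95% interval -0.76 to 0.73, limma P = 0.971, exact permutation p = 0.992), and the ratio of the means was below 1. Without control pig 5 the difference was 0.36 with an unadjusted limma P of 0.00898. Without control pigs 2 and 5 it was 0.42 (limma P of 0.00329) and PDE4D was then called by the rule of the study, as the only member. Both were the controls with the highest PDE4D, so that leaving them out had to raise the difference. The share of all loci called without these pigs is not given, so that this call has no background beside it. The part of smooth muscle or ciliated cells in the value of control pig 5 was not tested.

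The table holds another protein-coding locus named PDE4D upstream of it on the same strand (MSTRG.14643, chr16:38272544-38652285). It gave 1.12, 1.78, 1.14, 0.530 and 2.47 FPKM in control pigs 1 to 5 and 0.867, 1.18, 1.99, 1.34 and 1.46 FPKM in rpFSH pigs 1 to 5. Control pig 5 was again the highest, at 2.47 FPKM, but less far from the others than in the locus described above. The difference was 0.01 (limma P = 0.956, exact permutation p = 0.960). Over the 10 pigs its mean was 1.39 FPKM, against 1.14 FPKM in the locus described above. It is left out of the order of levels, the shares and the sums given below, which hold only a part of PDE4D.

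**Figure D3:**
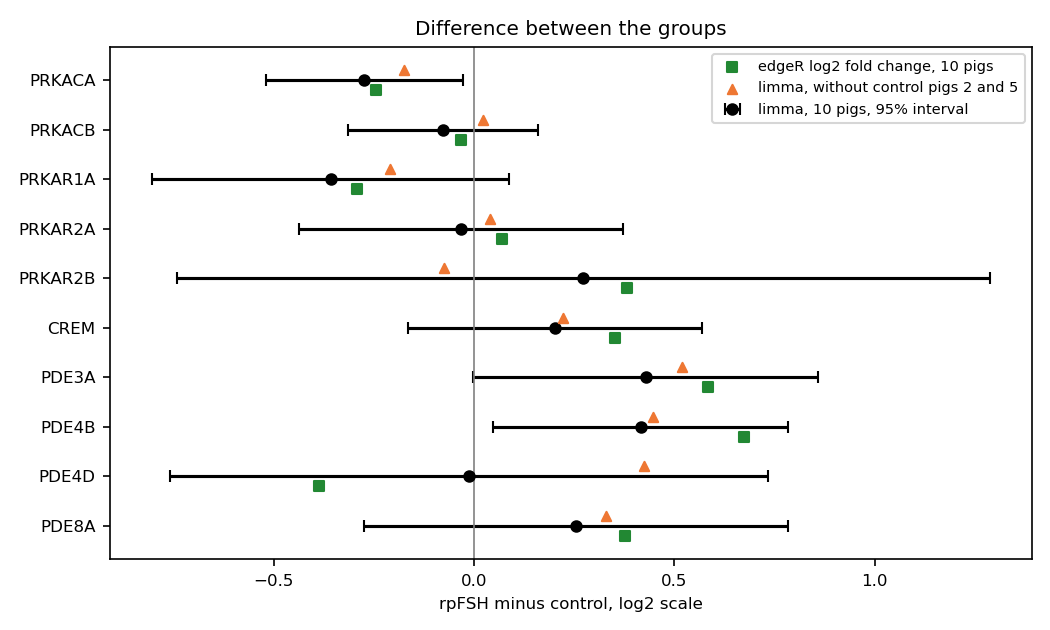
Difference between the groups (rpFSH minus control, log2 scale) for the 10 genes. Black points with bars are limma differences of log2 (FPKM + 1) with 95% intervals, green squares are edgeR log2 fold changes on the counts, both over 10 pigs, and orange triangles are limma differences without control pigs 2 and 5. The intervals of PRKACA (-0.52 to -0.03) and PDE4B (0.05 to 0.78) do not include 0, and PDE4D is at -0.01 with all pigs and 0.42 without control pigs 2 and 5.

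The limma difference was above 0 in 5 of the 10 members, with a median of 0.09. Over all loci tested 36.2% were above 0, with a median of -0.05, or -0.01 after upper-quartile scaling. By role, both catalytic subunits had a difference below 0, and 3 of 4 phosphodiesterases and CREM had one above 0. The regulatory subunits had 2 of 3 below 0. The signs of PRKACB, PRKAR2A, PRKAR2B and PDE4D changed under some alternatives, so that this tally by role is not firm.

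The phosphodiesterases differed little in their shares of the summed FPKM of the 4. PDE8A made up 41.2 ± 12.0% in controls and 38.6 ± 12.4% after rpFSH, and PDE3A 35.9 ± 8.45% and 38.9 ± 9.85% (SD, n = 5 each, exact permutation p = 0.706 and 0.587). PDE4B made up 14.8 ± 2.50% and 17.2 ± 4.87% (exact permutation p = 0.341). PDE4D made up 8.07 ± 9.19% and 5.33 ± 1.45% (exact permutation p = 0.944), with 24.4% in control pig 5 and 3.13 to 7.08% elsewhere. Adjusted over the 9 shares and ratios, every p was at least 0.643.

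**Figure D4:**
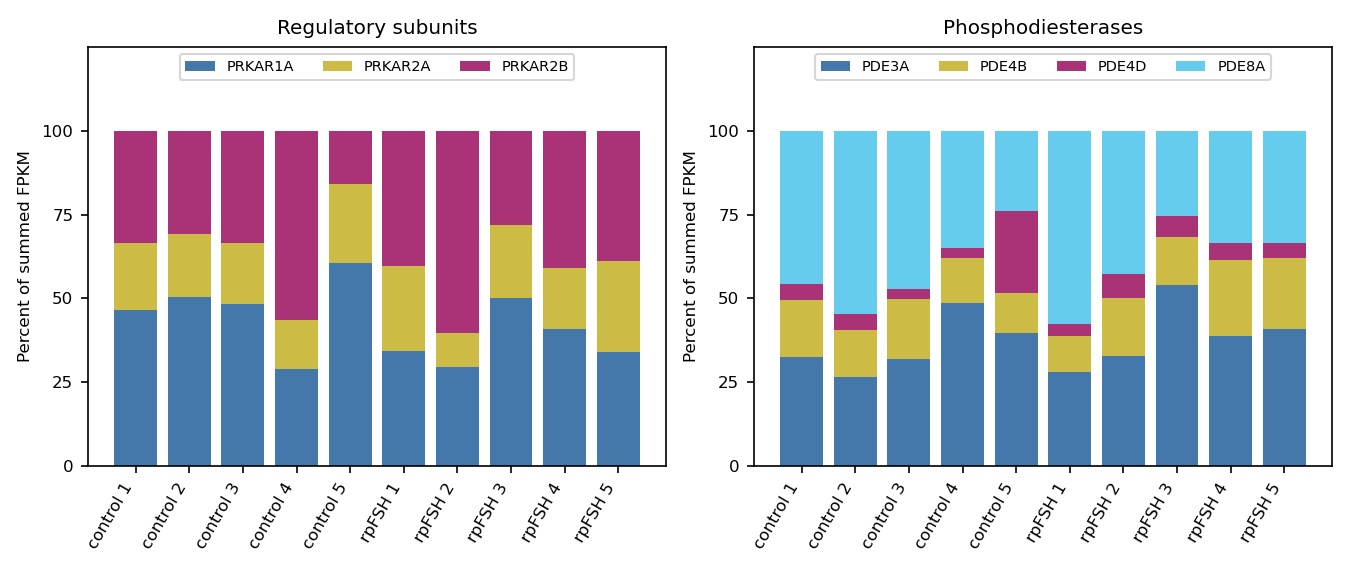
Share of each regulatory subunit (left) and of each phosphodiesterase (right) in their summed FPKM, as stacked percent bars that start at 0, for the 10 pigs. PRKAR2B holds 56.3% and 60.3% in control pig 4 and rpFSH pig 2, and PDE4D holds 24.4% in control pig 5.

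Sums over members were looked at after the values of the single genes were known, and are given as a description without a test. The summed catalytic FPKM was 11.4, 12.5, 9.65, 10.7 and 13.4 in control pigs 1 to 5 and 10.7, 9.21, 9.12, 9.52 and 9.96 in rpFSH pigs 1 to 5. The summed FPKM of the 4 phosphodiesterases was 12.7, 15.1, 13.8, 10.6 and 18.5 in control pigs 1 to 5 and 20.7, 14.7, 18.3, 18.5 and 19.7 in rpFSH pigs 1 to 5. Both sums overlapped between the groups. The log2 ratio of phosphodiesterases to catalytic subunits within a pig was 0.15, 0.27, 0.52, -0.01 and 0.47 in control pigs 1 to 5 and 0.95, 0.67, 1.01, 0.96 and 0.98 in rpFSH pigs 1 to 5. These ratios did not overlap, and their means were 0.28 ± 0.22 and 0.91 ± 0.14 (SD, n = 5 each). The ratio combines the members that stood out between the groups, so that its separation is no support for them. The difference of 0.64 was 0.45 when counts were not divided by length and 0.56 to 0.70 with each pig left out.

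Per length, the order of the mean levels over the 10 pigs ran from PRKAR1A (25.2 FPKM) over PRKAR2B (24.5), PRKAR2A (11.6), PRKACA (7.22), PDE8A (6.43), PDE3A (6.08), PRKACB (3.40), PDE4B (2.61) and CREM (2.05) to PDE4D (1.14 FPKM). PRKAR1A stood at percentile 98.0 of the protein-coding loci and PDE4D at percentile 45. Regulatory subunits thus had more transcript per length than catalytic ones. By summed counts over the 10 pigs, not divided by length, PRKACB (42455) was above PRKAR2A (31319), PRKACA (22124) and PDE3A (18047). PRKAR1A (159133) and PRKAR2B (211238) were above both catalytic subunits in counts too. Of the 9 neighbours in the order of FPKM, 3 pairs differed within pigs beyond their spread (exact sign-flip permutation over 10 pigs, adjusted over 9). These were PRKAR2B above PRKAR2A (adjusted p = 0.0234), PRKAR2A above PRKACA (0.0176) and PDE3A above PRKACB (0.0176). The other 6 did not, and PRKAR1A was above PRKAR2B in 6 of 10 pigs and PRKACA above PDE8A in 6 of 10. The pairs and their direction were taken from the values that were tested, so that these p are no separate support for the order.

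How the members varied together was described from deviations of log2 (FPKM + 1) from the group means over 10 pigs, for 45 pairs with permutations of pigs within groups. By Pearson or by Spearman correlation, 0 pairs passed at an adjusted p under 0.05, while 3 and 4 had an unadjusted p under 0.05. PRKAR2A and PDE8A had an r of 0.847 (permutation p = 0.00819, adjusted p = 0.226) and a rho of 0.661 (permutation p = 0.0463, adjusted p = 0.429). Without control pig 2 and rpFSH pig 1, the pigs farthest from the median of PRKAR2A, r was 0.372, so that the relation rested on these pigs. PRKAR2B and PDE3A had an r of -0.828 (permutation p = 0.0100, adjusted p = 0.226) and a rho of -0.794 (permutation p = 0.0180, adjusted p = 0.311), with an r of -0.460 without control pig 5 and rpFSH pig 2. PRKAR2B and PDE4D had an r of -0.659 (permutation p = 0.0409, adjusted p = 0.580) and a rho of -0.479 (permutation p = 0.129, adjusted p = 0.647), and an r of -0.683 without the same pigs. PRKACA and PRKAR2A had an r of 0.521 (permutation p = 0.0773, adjusted p = 0.580) and a rho of 0.745 (permutation p = 0.0196, adjusted p = 0.311). Their r was 0.913 without control pigs 3 and 5 and 0.113 after upper-quartile scaling. PRKAR1A and PDE3A had an r of -0.499 (permutation p = 0.170, adjusted p = 0.694) and a rho of -0.782 (permutation p = 0.0207, adjusted p = 0.311), and an r of -0.642 without control pig 4 and rpFSH pig 5.

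Around the members, 67 further genes of the pathway in 6 lists were looked up, of which 61 were matched and 59 tested. In limma, 2 of the 59 had an unadjusted P under 0.05 and 0 were called by the rule of the study, with a median difference of 0.00. This is near the 3.03% of all loci. These were the phosphodiesterase PDE7A, lower after rpFSH, and NR4A1, a nuclear receptor gene that cAMP induces in the ovary, higher after rpFSH.

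The other PKA subunits and the inhibitors of the kinase held 5 tested genes, of which 0 had an unadjusted limma P under 0.05 (PRKACG was not matched). The most abundant were PKIG, an inhibitor of the catalytic subunits, at 14.9 ± 11.8 and 14.9 ± 11.5 FPKM, and PRKX, a kinase related to the catalytic subunits, at 11.9 ± 18.0 and 10.2 ± 14.2 FPKM (SD, n = 5 each). PRKX was 43.9 FPKM in control pig 2 and 35.6 FPKM in rpFSH pig 1, the pigs with the highest luteal markers, against medians of 5.41 and 4.01 FPKM. Their part in this level was not tested.

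Of the A-kinase anchoring proteins, which tether the regulatory subunits, 12 were tested and 0 had an unadjusted limma P under 0.05 (AKAP4 was below the filter, and AKAP2, AKAP13, AKAP14 and AKAP17A were not matched). AKAP11 was at 8.54 ± 1.05 and 7.89 ± 1.02 FPKM and AKAP12 at 5.86 ± 1.65 and 6.85 ± 2.12 FPKM. SPHKAP, named here after its values were seen, was the only one with an unadjusted edgeR P under 0.05 (P of 0.0209, adjusted p = 0.992), with 5.44 FPKM in its highest control pig and at most 0.135 FPKM after rpFSH.

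Of the 12 other phosphodiesterases that hydrolyse cAMP, 1 had an unadjusted limma P under 0.05. PDE7A was 1.94 ± 0.362 and 1.32 ± 0.465 FPKM (SD, n = 5 each), a difference of -0.35 (limma P = 0.0377, exact permutation p = 0.0476), with 4 of 5 rpFSH pigs below the lowest control. Its P was 0.0899 in edgeR and 0.189 without control pigs 2 and 5. PDE8B at 5.83 ± 1.75 and 5.43 ± 1.81 FPKM and PDE7B at 4.75 ± 1.08 and 4.90 ± 2.26 FPKM were the most abundant. PDE1C, also named after its values were seen, had an edgeR P of 0.0212 (adjusted p = 0.992) with means of 0.357 and 0.954 FPKM.

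The 9 genes of the CREB family, its coactivators and the cAMP-regulated exchange factors had 0 with an unadjusted limma P under 0.05. The coactivators EP300 (8.61 ± 0.907 and 8.90 ± 0.484 FPKM) and CREBBP (8.02 ± 1.64 and 8.40 ± 1.38 FPKM) were the most abundant. Of 8 genes listed for gonadotropin receptor coupling, which include the receptors and stimulatory and inhibitory G proteins, 0 had an unadjusted limma P under 0.05. GNAS, the stimulatory G protein, was 35.9 ± 4.30 and 32.1 ± 1.99 FPKM (limma P = 0.244, exact permutation p = 0.0952) and GNAI3, an inhibitory one, 11.7 ± 1.49 and 11.09 ± 1.25 FPKM. The receptors, named here for their role, were 4.15 ± 2.60 and 3.09 ± 2.15 FPKM for FSHR and 3.03 ± 0.732 and 4.01 ± 2.41 FPKM for LHCGR, both within the spread between pigs.

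Of 13 tested genes that respond to cAMP in the ovary, 1 had an unadjusted limma P under 0.05 (SNAP25 was below the filter, and HSD3B1 was not matched). NR4A1 was 6.35 ± 3.22 and 10.2 ± 2.21 FPKM (SD, n = 5 each), a difference of 0.71 (limma P = 0.0401, exact permutation p = 0.0635), with 3 of 5 rpFSH pigs above the highest control. Its P was 0.0611 in edgeR and ranged from 0.0139 to 0.0890 in limma with each pig left out. The steroidogenic genes CYP11A1 and STAR were the most abundant and followed the luteal markers, of which they are part. STAR was 532 FPKM in control pig 2 and 448 FPKM in rpFSH pig 1, with group means of 109 and 116 FPKM.

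The spans of 8 members held 50 unannotated loci, all of which passed the filter, and PRKACA and PRKAR1A held none. Of the 50, 7 lay on the strand of the member, 23 on the opposite strand and 20 had no strand. The methods describe a library that marks strand, but whether counting used it is not stated, so that reads of a locus and unspliced reads of its host gene cannot be told apart. Of the 50, 7 (14.0%) had an unadjusted limma P under 0.05, against 946 of 19909 unannotated loci (4.75%), with a smallest adjusted p of 0.976. The count was 4 without control pig 1, 13 without rpFSH pig 2, 2 without rpFSH pig 4 and 3 without rpFSH pig 5. The share of all unannotated loci that passed without these pigs is not given, so that these counts have no background beside them. All 7 were higher after rpFSH. They lay in PDE4B (3 of 4), PDE3A (2 of 9) and PDE8A (2 of 5). Loci within the same gene are not separate observations.

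In PDE4B, the unannotated locus with the most counts (MSTRG.29297, chr6:146203331-146210628, on the strand of the gene) was 1.84 ± 0.299 and 3.15 ± 0.930 FPKM (SD, n = 5 each, limma P of 0.00603). In PDE3A it was MSTRG.25424 (chr5:52627338-52679609, on the opposite strand), at 2.03 ± 0.651 and 3.17 ± 1.08 FPKM (limma P of 0.0463). This locus held 110537 counts over the 10 pigs, against 18047 for PDE3A itself. In PDE8A it was MSTRG.30927 (chr7:52504978-52527302, opposite strand), at 2.89 ± 0.668 and 3.91 ± 0.923 FPKM (limma P of 0.0478).

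The remaining members had most-counted loci without an unadjusted limma P under 0.05. They were MSTRG.35232 in PRKAR2B (3.55 and 5.11 FPKM in the group means), MSTRG.4556 in CREM (1.52 and 1.96), MSTRG.7836 in PRKAR2A (1.55 and 1.75), MSTRG.29130 in PRKACB (1.69 and 1.68) and MSTRG.14627 in PDE4D (0.981 and 0.631 FPKM). In PDE4D all 12 loci were lower in mean after rpFSH, and their group-centred correlation with the gene over the 10 pigs was 0.669 to 0.990, so that they shared the high value of control pig 5.

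**Figure D5:**
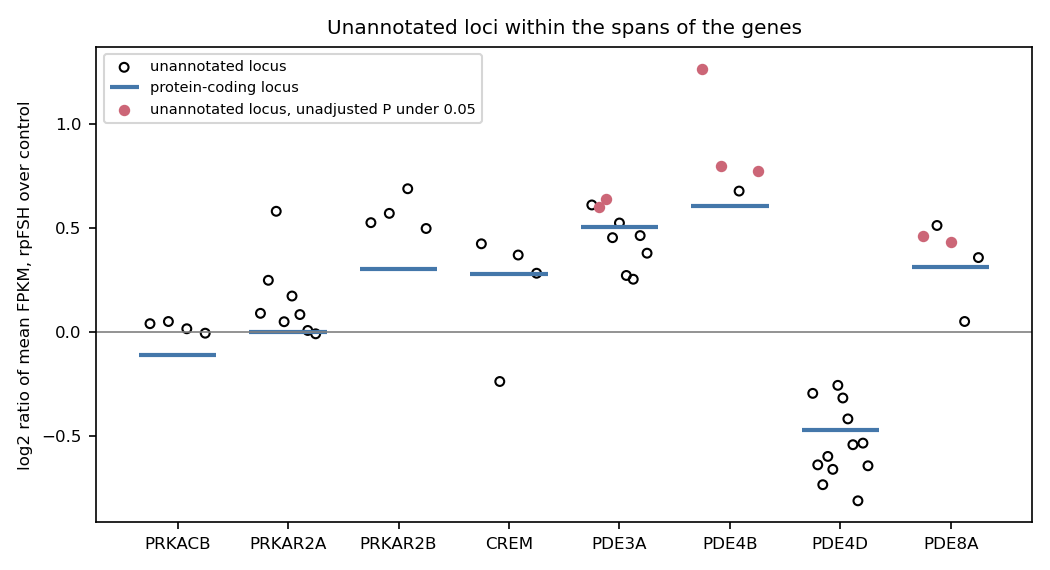
Log2 ratio of group mean FPKM (rpFSH over control) of the unannotated loci (open circles, or red where the unadjusted limma P was under 0.05) within the span of each gene, with the ratio of the gene itself as a blue line. All 7 red points are above 0 and lie in PDE3A, PDE4B and PDE8A, and all 12 loci of PDE4D are below 0.

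The loci whose pattern over the 10 pigs was most like that of each member were found among 11305 protein-coding loci (mean FPKM 1 or more), by the Pearson r of group-centred log2 (FPKM + 1), and are given as a description. They were PFN2 (r = 0.954) and TTC12 (0.948) for PRKACA, RAB1A (0.979) and MYD88 (0.965) for PRKACB, and PIK3IP1 (0.889) and IQSEC1 (0.882) for PRKAR1A. For PRKAR2A they were C19orf53 (0.994) and CDC123 (0.986), and for PRKAR2B FZD5 (0.988) and BRPF3 (0.947). For CREM they were SPRYD7 (0.969) and PTPRM (0.956), for PDE3A a locus shared by CACNB2 and NSUN6 (0.962) and ZNF503 (0.946), and for PDE8A BAZ1A (0.972) and ATG4A (0.963). For PDE4B they were a locus with ARHGEF7 (0.974) and a locus with an Ensembl identifier only (0.970), and for PDE4D a locus with TLN1 (0.990) and a locus with Ensembl identifiers only (0.990). All of these correlations share the same 10 libraries, and no p is given for them.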

How the data were processed

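RNA-seq values of 10 ovaries were used, 5 per group. Per the methods of the study, the authors used Cutadapt for trimming, Hisat2 and Bowtie2 for mapping, StringTie for assembly, and StringTie with Ballgown for the FPKM estimates. The submitters' processing notes list HISAT2 2.0, StringTie 1.3.0, Bowtie 0.12.2 and Sscrofa11.1. The deposited table holds FPKM and whole-number counts for each pig, and the way these counts were made is not stated. The labels describe poly(A) selection and a NovaSeq instrument, the methods rRNA removal and a HiSeq instrument. FPKM at the floor of 0.0001 was kept as written.

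Groups were compared with limma 3.58.1 (lmFit, eBayes with trend, two-sided) on log2 (FPKM + 1) in R 4.3.3, over protein-coding loci that reached 0.1 FPKM in mean. It stands in for Ballgown, the authors' tool. Benjamini-Hochberg adjustment ran over all loci tested. Unannotated loci were fitted on their own. The counts were tested with DESeq2 1.42.0 and with the quasi-likelihood test and TMM of edgeR 4.0.16. DESeq2 gave PDE4D no P. For single genes and shares, all 252 assignments of the pigs to groups were enumerated in a two-sided exact permutation test (Python 3.11.15, scipy 1.17.1). Pairs had 100000 permutations. The fits were tested on simulated data. None of the 45 pairs of libraries agreed within sampling noise. Each pig is 1 sample, and P sets the difference between the groups against the spread between these pigs.

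Members were described in full. Of the pathway lists, genes with an unadjusted limma P under 0.05 and the 2 with the highest mean FPKM were named, with the 2 most alike loci per member and the most-counted unannotated locus per member. The members and lists were chosen with earlier results of these data known. Alternatives were a pseudocount of 0.1, no filter, a filter at a mean of 1 FPKM, upper-quartile scaling, both count tools, the replicate number as a block, leaving out each pig, and leaving out control pigs 2 and 5. Leaving out control pig 2 with rpFSH pig 1, and the alternatives for unannotated loci and for the ratio of phosphodiesterases to catalytic subunits, were chosen after seeing the data.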

Additional observations from a re-analysis of the deposited data

Results flagged for a closer look

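Within a group of 5 pigs, a value was taken up here when its pig lay far from the other 4 by Dixon's test, which by chance happens in about 1 of 20 groups. The members, their shares and ratios, and the other genes named in the text were looked at. Among the members these were PRKACB in rpFSH pig 2 (2.86 FPKM, the lowest), PRKAR2A in rpFSH pig 1 (18.2 FPKM), PDE8A in rpFSH pig 1 (11.9 FPKM) and PDE4D in control pig 5 (4.52 FPKM, and 24.4% of the summed phosphodiesterases). The log2 ratio of phosphodiesterases to catalytic subunits was lowest in rpFSH pig 2 (0.67). Among the other named genes they were PRKX in control pig 2 (43.9 FPKM) and rpFSH pig 1 (35.6 FPKM), PKIG in rpFSH pig 1 (34.9 FPKM), GNAI3 in control pig 2 (14.3 FPKM), STAR in control pig 2 (532 FPKM) and rpFSH pig 1 (448 FPKM), CYP11A1 in control pig 2 (1758 FPKM) and rpFSH pig 1 (787 FPKM), SPHKAP in control pig 2 (5.44 FPKM), PDE1C in control pig 2 (0.584 FPKM) and the stroma marker LUM in control pig 5 (29.0 FPKM). In 12 of these 17 cases the pig was control pig 2 or rpFSH pig 1. Over all 59 tested pathway genes, 19 of 118 groups held a pig that far from the others, and in 18 of the 19 it was control pig 2 or rpFSH pig 1.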

How the results depend on the processing

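Of 194 alternative values of counts, shares and tested ratios, 165 stayed as they were, and of 250 for single genes, pairs and the ratio of phosphodiesterases to catalytic subunits 185 did. A count stayed when it was within 1.5 times the main count, the untested ratio when it moved by less than 1 SD between pigs, and any other value when it kept its direction and side of the threshold. Where values did not stay, the cause was not tested. The number of members called by the rule of the study was 0 under every alternative except 1 without control pigs 2 and 5. The number of pathway genes with an unadjusted P under 0.05 was 1 with no filter, 1 after upper-quartile scaling, 4 without control pigs 2 and 5, and 5 without control pig 2 and rpFSH pig 1. The share of all loci that passed under these alternatives is not given. These counts thus cannot be read as a gain or loss of the pathway or the members. Without control pigs 2 and 5 the log2 ratio of PRKACA to PRKACB differed by -0.23, the share of PDE4D by 1.64 percentage points, PRKACB by 0.022, PRKAR2A by 0.039, PRKAR2B by -0.075 and PDE4D by 0.42. PRKAR2A was at 0.019 after upper-quartile scaling, 0.069 in edgeR and 0.069 in DESeq2, and PDE4D at 0.20 with a pseudocount of 0.1 and 0.020 after upper-quartile scaling.

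With each pig left out, members with an unadjusted P under 0.05 numbered 0 to 3 (0 without rpFSH pig 4), pathway genes 0 to 3 and unannotated loci 2 to 13. For these counts too, the share of all loci that passed in the same fit is not given. The differences ran from -0.15 to 0.36 for PDE4D, -0.20 to 0.044 for PRKAR2A and -0.049 to 0.52 for PRKAR2B. Those in shares ran from -13.7 to -5.75 percentage points for PRKAR1A, -0.260 to 3.96 for PRKAR2A, -0.827 to 6.11 for PDE3A, -3.98 to 1.35 for PDE4D and -7.46 to 0.691 for PDE8A. The log2 ratio of PRKACA to PRKACB ran from -0.29 to -0.15, and that of catalytic to regulatory subunits from -0.30 to 0.015.

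Same-numbered pigs did not deviate together (r of -0.413 to 0.111 by number, pooled r of -0.139). Whether they share more than a number is not stated. With the replicate block, 2 members had an unadjusted P under 0.05, PRKACA (limma P of 0.0487) and PDE3A (P of 0.0314), and PDE4B had 0.0702. Every member had at least 722 counts in each pig.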
